A study of Mus musculus with 13 samples.

Results

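The miR-130 and miR-301 family was followed across 13 mouse neuroblastomas through 4 miRNAs, mmu-miR-130a-3p, mmu-miR-130b-3p, mmu-miR-301a-3p and mmu-miR-301b-3p, written below without the species prefix. These 4 miRNAs, of 1079 mouse miRNAs on the array, were chosen by name as a seed family, with their levels in the 2 genotypes already known. The genotype comparison is therefore given for them as a description, without a test.

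The tumours were primary abdominal neuroblastomas that arose spontaneously, and the series title places them in TH-MYCN mice, in which a MYCN transgene is driven by the tyrosine hydroxylase promoter of the sympathetic lineage. The labels gave 6 tumours wild type for caspase-8 without metastasis and 7 deficient for caspase-8 with metastasis, as biological replicates. Caspase-8 starts the cell death that is set off by death receptors. Genotype and metastasis changed together, so their contributions cannot be told apart, and neither the age of the mice nor the way caspase-8 was lost is stated in the labels. Total RNA of each tumour was hybridised to 1 single-colour Agilent mouse miRNA array.

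A miRNA guides silencing proteins to messenger RNAs, and bases 2 to 8 of its 5′ end, the seed, do most of the pairing. Members of the miR-130 and miR-301 family share a seed and are therefore predicted to share many targets. Among the targets reported for them is Pparg, a nuclear receptor of fat and vessel cells, and miR-301a has been reported to raise NF-kB activity.

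The mature sequences are shown because the shared seed defines the family and the bases after it set the members apart. They come from RefSeq on assembly GRCm38.p6, which held a mature entry for 3 of the 4 members, and the seed is in capitals. miR-130a-3p lies at chr2:84741116-84741137 on the minus strand, miR-130b-3p at chr16:17124071-17124092 on the minus strand and miR-301a-3p at chr11:87113054-87113076 on the plus strand. The hairpin of Mir301b, at chr16:17124400-17124496 on the minus strand, is given for miR-301b-3p. miR-721, at chr5:136375777-136375797 on the minus strand, was the other miRNA on the array with this seed.
miR-130a-3p: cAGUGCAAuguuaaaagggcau
miR-130b-3p: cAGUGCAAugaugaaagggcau
miR-301a-3p: cAGUGCAAuaguauugucaaagc
Mir301b hairpin: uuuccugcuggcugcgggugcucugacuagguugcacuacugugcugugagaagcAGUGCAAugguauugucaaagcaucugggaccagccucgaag
miR-721: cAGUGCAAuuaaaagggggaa

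Of 1679 mature mouse miRNA names in the RefSeq table, 7 had this seed. Counted from 1 at the 5′ end, miR-130a-3p and miR-130b-3p differed at 2 of 22 bases, U11A and A13G. miR-301a-3p differed from its best ungapped match within the Mir301b hairpin at 1 of 23 bases, A10G, whereas miR-130a-3p and miR-301a-3p differed at 10 of 22. By sequence the family therefore falls into a miR-130 pair and a miR-301 pair. By position the pairing is another: Mir130b and Mir301b lie on the same strand of chromosome 16 with 257 bases between their hairpins, both inside the gene 2610318N02Rik. Mir301, the hairpin of miR-301a, lies inside Ska2, which encodes a protein of the mitotic spindle, and Mir130a stands between Ypel4 and Gm19426.

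Levels are log2 of the scanner signal, summed over the probes of a miRNA and scaled to the 75th percentile of each array. Probes differ in brightness, so a level is compared between tumours and never between miRNAs. All 4 members were detected on all 13 arrays. Arrays detected 338 to 469 mouse miRNAs each, and none of their 47604 spots was saturated. The files give the slide of each array. On slide 1 were 2 tumours of wild-type mice and 5 of deficient mice, on slide 2 the other 4 wild-type and 2 deficient ones, and each slide was also 1 scan.

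Each member had a higher mean in the caspase-8-deficient tumours, by 0.22 (miR-130a-3p) to 0.68 (miR-301b-3p) on the log2 scale, and the groups overlapped for every member. With limma and Benjamini-Hochberg adjustment, 0 of 419 tested miRNAs passed an adjusted p of 0.05 between genotypes (0%), with 16 at an unadjusted p under 0.05. Levels of the groups did not overlap for 1 tested miRNA (0.239%), which was none of the members. In bulk tumours, fewer cells of a type and less RNA per cell cannot be told apart.

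miR-130a-3p, reported in endothelial cells as a promoter of vessel growth, was the steadiest member. In wild-type tumours it was at 10.66, 10.66, 9.96, 10.16, 10.98 and 10.53 in replicates 1 to 6, with a median of 10.59. Deficient tumours ran from 10.26 in replicate 2 through a median of 10.78 to 10.90 in replicate 1. The highest of all 13 tumours was wild-type replicate 5, and 2 wild-type tumours, replicates 3 and 4, lay below every deficient tumour. The means were 10.49 ± 0.37 (SD, n = 6) and 10.71 ± 0.22 (SD, n = 7), a difference of 0.22 (SE 0.19, 95% interval −0.19 to 0.63). With array weights it was 0.11, without scaling 0.41 and without wild-type replicate 3 it was 0.12. Deficient replicate 2 stood apart from the other 6 deficient tumours, the lowest of which was at 10.65.

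miR-130b-3p has its hairpin beside that of miR-301b-3p. Its wild-type levels ran from 8.72 through a median of 9.33 to 9.97, and its deficient levels from 9.47 through a median of 9.63 to 10.13. All 7 deficient tumours were above the wild-type median and 3 were above the wild-type maximum. The 4 wild-type tumours below every deficient tumour were replicates 3, 4, 5 and 6, which are the 4 wild-type tumours of slide 2. The means were 9.37 ± 0.46 (SD, n = 6) and 9.78 ± 0.31 (SD, n = 7), a difference of 0.41 (SE 0.23, 95% interval −0.07 to 0.90). With array weights it was 0.09, and within slide 1 it was −0.22.

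miR-301a-3p, carried in an intron of its host gene, ran from 8.16 through 9.01 to 9.29 in wild-type tumours and from 9.12 through 9.27 to 9.71 in deficient tumours. Wild-type replicate 4 was lowest of all by a gap of more than the whole range of the deficient tumours. Deficient replicates 1, 3 and 4 exceeded every wild-type tumour. The means were 8.93 ± 0.42 (SD, n = 6) and 9.38 ± 0.23 (SD, n = 7), a difference of 0.45 (SE 0.20, 95% interval 0.01 to 0.88). With array weights it was 0.25, and without wild-type replicate 4 it was 0.30.

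miR-301b-3p had the widest range, 2.06 on the log2 scale over the 13 tumours. Wild-type replicates 1 to 6 were at 7.50, 6.47, 6.49, 6.04, 6.57 and 6.87, and deficient replicates 1 to 7 at 7.86, 7.10, 7.24, 8.10, 7.44, 6.71 and 6.88. The medians were 6.53 and 7.24. Deficient replicates 4 and 1 were the highest tumours and the only 2 deficient ones above every wild-type tumour. Wild-type replicate 1 came next, and deficient replicates 2, 3, 5, 6 and 7 lay within the wild-type range. The means were 6.66 ± 0.49 (SD, n = 6) and 7.33 ± 0.51 (SD, n = 7), a difference of 0.68 (SE 0.27, 95% interval 0.09 to 1.27), which is a 1.60-fold ratio. With normexp background correction the difference was 0.11 and with array weights 0.24. With the mean of log2 probe levels, which averages in 2 probes that were at the floor on every array, it was 0.33.

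**Figure D1:**
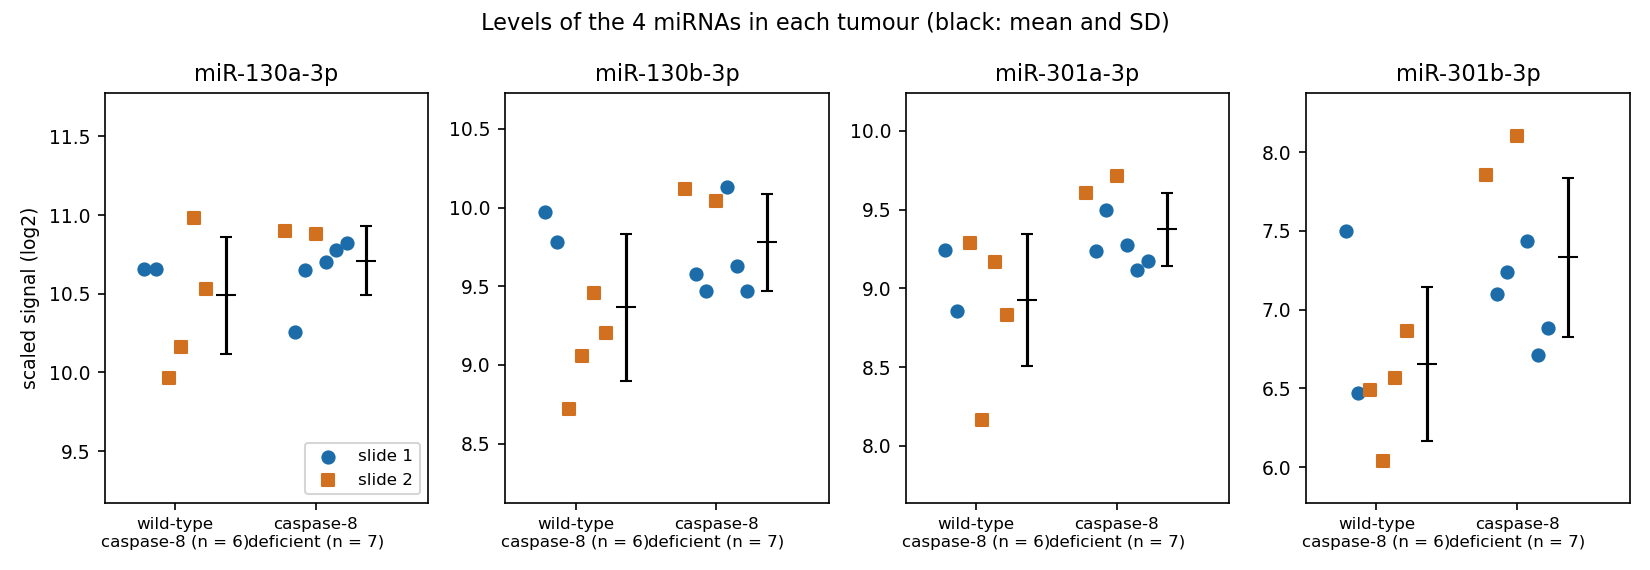
Scaled signal (log2, vertical axis) of each member in each tumour, with 6 wild-type and 7 deficient tumours per panel. Circles are arrays of slide 1, squares arrays of slide 2, and black marks the mean and SD of a genotype. The 2 deficient tumours of slide 2 are high in every panel, and the genotypes overlap in every panel.

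The median difference of the 4 members was 0.43, beside 0.04 over all 419 tested miRNAs. Of the tested miRNAs, 71.1% had a smaller difference than miR-130a-3p, 83.8% than miR-130b-3p, 85.7% than miR-301a-3p and 93.6% than miR-301b-3p. These shares describe a contrast known when the members were chosen. The SD over the 13 tumours was 0.31 for miR-130a-3p, 0.43 for miR-130b-3p, 0.39 for miR-301a-3p and 0.59 for miR-301b-3p, where the median tested miRNA had 0.53. Of the members, miR-301b-3p was thus the one that varied more than the median tested miRNA.

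For each member the genotype difference was smaller within slide 1 than within slide 2, and the test of that change did not pass. Within slide 1 it was −0.01 for miR-130a-3p, −0.22 for miR-130b-3p, 0.21 for miR-301a-3p and 0.09 for miR-301b-3p. Within slide 2 it was 0.48, 0.97, 0.80 and 1.49 in the same order. On each slide 1 of the genotypes had only 2 tumours. The difference between the slides' genotype differences was 0.49 (SE 0.41) for miR-130a-3p, 1.19 (SE 0.38) for miR-130b-3p, 0.59 (SE 0.43) for miR-301a-3p and 1.40 (SE 0.47) for miR-301b-3p. As a genotype by slide term in limma it passed for no member, with adjusted p = 0.569 for miR-130b-3p, adjusted p = 0.574 for miR-301b-3p, adjusted p = 0.868 for miR-301a-3p and adjusted p = 0.879 for miR-130a-3p. By that term 0 of 419 tested miRNAs passed (0%), with 20 at an unadjusted p under 0.05. The term uses the genotype levels known when the members were chosen. With so few tumours, a term that does not pass does not show that the slides agree.

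For miR-301b-3p, the deficient tumours of slide 2 were at 7.86 and 8.10 and the 4 wild-type tumours of the same slide at 6.04 to 6.87, without overlap. On slide 1 its wild-type tumours, at 6.47 and 7.50, lay on either side of all 5 deficient tumours, at 6.71 to 7.44. For miR-130b-3p the wild-type tumours of slide 1, at 9.78 and 9.97, were above 4 of the 5 deficient tumours there. With slide as a block the differences were 0.22 for miR-130a-3p, 0.36 for miR-130b-3p, 0.49 for miR-301a-3p and 0.77 for miR-301b-3p.

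**Figure D2:**
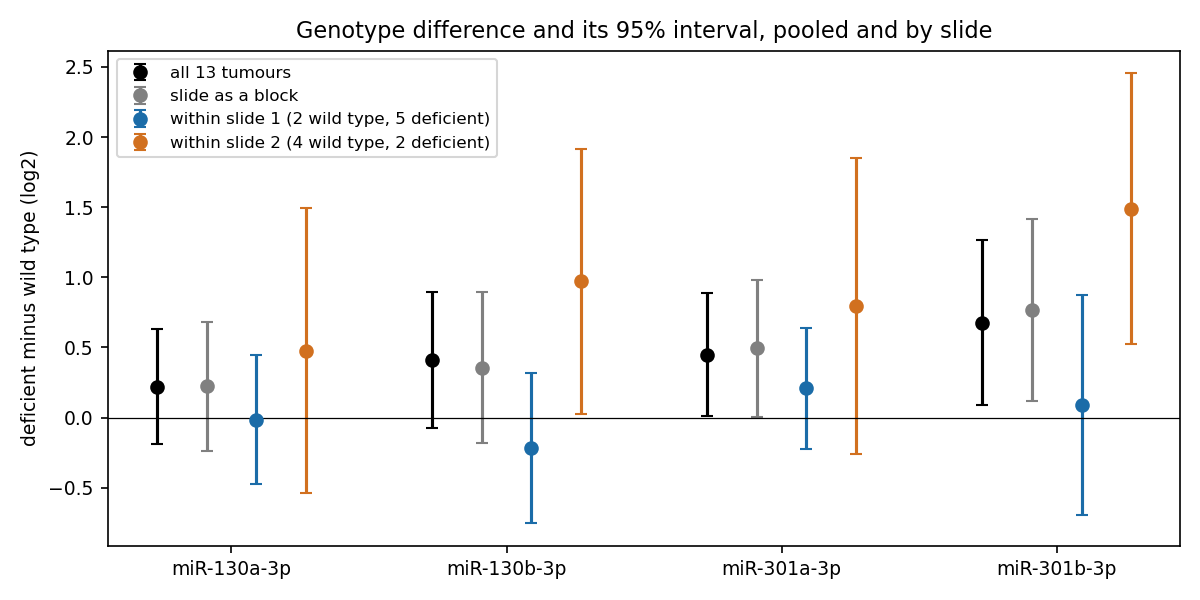
Deficient minus wild type (log2, vertical axis) for each member, with points for the estimate and bars for its 95% interval. Black uses all 13 tumours, grey adds slide as a block, and blue and orange are the fits within slide 1 and within slide 2. For miR-301b-3p the estimate was 0.09 within slide 1 and 1.49 within slide 2.

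Between the slides themselves, with genotype as a covariate, no member differed past the threshold. Slide 2 minus slide 1 was 0.00 (SE 0.21, limma adjusted p = 0.991) for miR-130a-3p and −0.15 (SE 0.25, adjusted p = 0.855) for miR-130b-3p. It was 0.12 (SE 0.22, adjusted p = 0.866) for miR-301a-3p and 0.23 (SE 0.30, adjusted p = 0.838) for miR-301b-3p. The 95% interval for miR-301b-3p, −0.42 to 0.88, holds a difference as large as the one between genotypes. Of 419 tested miRNAs, 0 passed between slides (0%), with 26 at an unadjusted p under 0.05.

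Over the 13 tumours Pearson's r was positive for all 6 pairs of members, and 3 of the 6 passed a permutation test with Benjamini-Hochberg adjustment over the 6 pairs. These values contain the genotype differences known when the members were chosen, so the 3 passes are not independent of that choice. With the mean of each genotype on each slide taken off, r for the same 3 pairs was 0.41 to 0.61 and no pair passed (smallest adjusted p = 0.103). The closest pair was miR-301a-3p and miR-301b-3p, whose sequences are the most alike above (r = 0.81, permutation p = 0.00035, adjusted p = 0.0021; rho = 0.77, adjusted p = 0.0178). Within slide 1 its r was 0.77, within slide 2 it was 0.83, and without the 2 tumours farthest from the median of miR-301a-3p it was 0.67. Deficient replicates 4 and 1 were the highest tumours for both, and wild-type replicate 4 was the lowest for both. Whether probes of 1 member also bind another member of similar sequence was not tested.

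The neighbours on chromosome 16, miR-130b-3p and miR-301b-3p, came next (r = 0.76, permutation p = 0.00271, adjusted p = 0.00813; rho = 0.73, adjusted p = 0.0199). Their r was 0.44 within slide 1, 0.88 within slide 2, and 0.79 without the 2 tumours farthest from the median of miR-130b-3p. miR-130a-3p and miR-130b-3p, which differ by 2 bases and lie on different chromosomes, had r = 0.71 (permutation p = 0.00702, adjusted p = 0.014), while their rho of 0.53 did not pass (adjusted p = 0.13). That relation rests on wild-type replicates 3 and 4, the lowest tumours for both. Without these 2 its r was 0.28, without wild-type replicate 3 alone it was 0.52 (adjusted p = 0.0991), and it was 0.09 within slide 1 and 0.86 within slide 2.

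The 3 pairs that did not pass each joined miR-130a-3p or miR-130b-3p to a miR-301. For miR-130a-3p with miR-301a-3p r was 0.45 (rho 0.26, permutation p = 0.123, adjusted p = 0.123), with −0.14 within slide 1 and 0.55 within slide 2. For miR-130a-3p with miR-301b-3p it was 0.50 (rho 0.41, permutation p = 0.0817, adjusted p = 0.098), with −0.18 and 0.66. For miR-130b-3p with miR-301a-3p it was 0.51 (rho 0.49, permutation p = 0.0781, adjusted p = 0.098), with −0.15 and 0.63, and 0.75 without the 2 tumours farthest from the median of miR-130b-3p (adjusted p = 0.0187). Leaving out wild-type replicate 3 gave r = 0.66 for miR-130a-3p with miR-301a-3p (adjusted p = 0.033) and r = 0.71 for miR-130b-3p with miR-301a-3p (adjusted p = 0.0139). Leaving out wild-type replicate 5 gave r = 0.64 for miR-130a-3p with miR-301b-3p (adjusted p = 0.037). Without wild-type replicate 4, r fell instead to 0.19 for miR-130a-3p with miR-301a-3p and 0.36 for miR-130a-3p with miR-301b-3p. For miR-130b-3p with miR-301a-3p it fell to 0.37, and none of these 3 passed (smallest permutation adjusted p = 0.31).

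**Figure D3:**
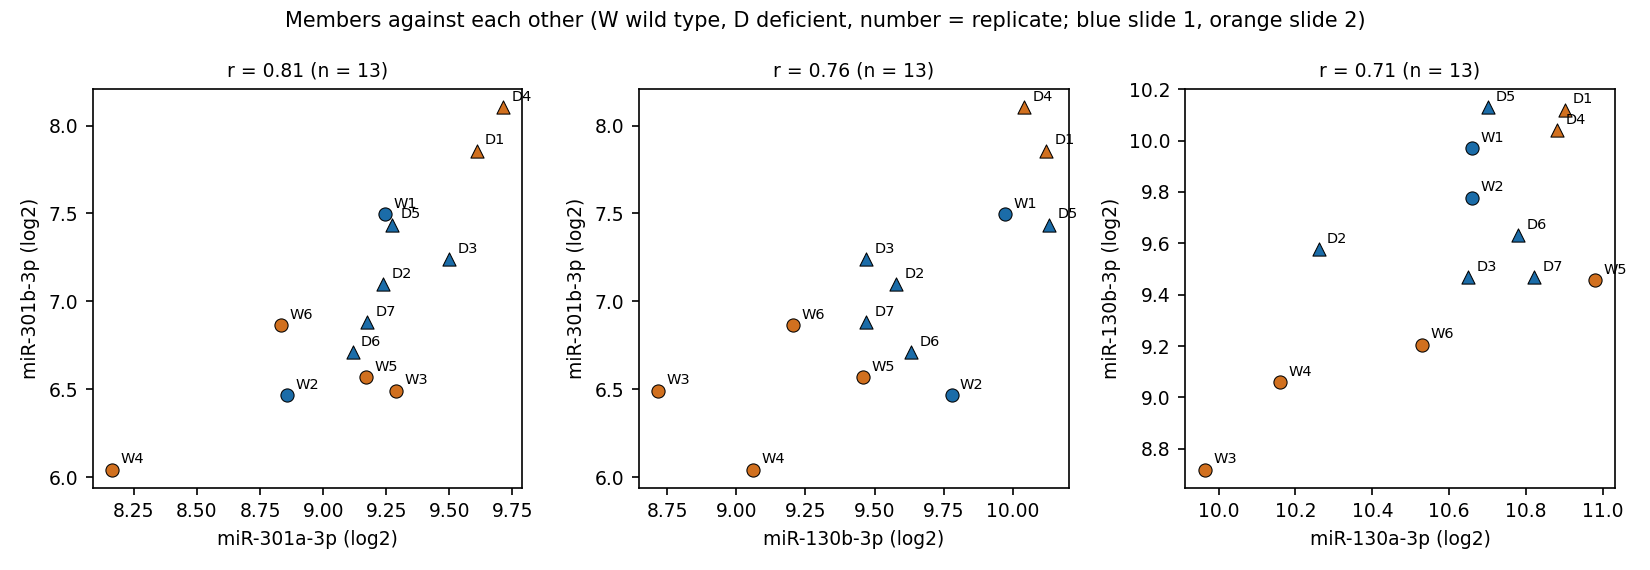
Levels (log2) of the 3 pairs of members that passed, 1 point per tumour, with W for wild type, D for deficient, the replicate number beside it, blue for slide 1 and orange for slide 2. W4 is low and D4 and D1 are high in the first 2 panels, and in the third panel W3 and W4 lie apart from the other tumours.

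All 6 values of r were lower with genotype and slide means taken off. For the 3 pairs plotted, r was then 0.61 for miR-301a-3p with miR-301b-3p, 0.60 for miR-130a-3p with miR-130b-3p and 0.41 for miR-130b-3p with miR-301b-3p. Within a slide no pair passed either by exact permutation, with a smallest adjusted p = 0.202 over 7 tumours and adjusted p = 0.0861 over 6. With normexp background no pair passed, and r for the 3 pairs, in the same order, was 0.49, 0.63 and 0.61. Over all 87571 pairs of the 419 tested miRNAs the median r was 0.00, with quartiles of −0.28 and 0.32. The 6 member pairs lay above 83.2% to 97.3% of them, as a description.

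miR-721 carries the family seed and has been reported, with miR-130b and miR-301b, to aid the reprogramming of fibroblasts. None of its relations with the members passed. It ran from 9.37 through 10.91 to 11.11 in wild-type tumours and from 10.34 through 11.74 to 13.26 in deficient tumours, highest in deficient replicate 2, where miR-130a-3p was lowest among deficient tumours. Its r was 0.07 with miR-130a-3p, 0.41 with miR-130b-3p, 0.06 with miR-301a-3p and 0.13 with miR-301b-3p (smallest permutation p = 0.162, smallest adjusted p = 0.649 over 16 relations). In the same order r was −0.75, 0.07, 0.35 and 0.28 within slide 1, and 0.50, 0.50, −0.22 and 0.04 within slide 2. The genotype difference of miR-721 was 1.05 (SE 0.48, limma adjusted p = 0.589), and 0.63 with slide as a block.

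miR-148a-3p, miR-148b-3p and miR-152-3p hold the members' seed without its last base, 1 position further on, within the capitals at bases 2 to 8.
miR-148a-3p: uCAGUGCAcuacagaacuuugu
miR-148b-3p: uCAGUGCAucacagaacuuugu
miR-152-3p: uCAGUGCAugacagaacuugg
Of their 12 relations with members, 1 passed. miR-148a-3p, which is abundant in liver and in secretory cells, rose and fell with miR-301a-3p (r = 0.84, permutation p = 0.00018, adjusted p = 0.00288 over 16 relations; rho = 0.80, adjusted p = 0.0232). This r was 0.71 within slide 1, 0.89 within slide 2, and 0.67 without wild-type replicates 2 and 4. With miR-301b-3p it was 0.62 (permutation p = 0.024, adjusted p = 0.192), and with miR-130a-3p it was −0.03. These values too contain the genotype differences.

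The 3 miRNAs most like each member were taken by Pearson's r over the 13 tumours among 290 other miRNAs detected on every array, as a description. For miR-130a-3p they were miR-15b-5p (r = 0.91), miR-106b-3p (0.82) and miR-25-3p (0.80), and miR-106b and miR-25 come from the same cluster inside Mcm7, a gene of DNA replication. Within slide 1 these 3 values were 0.69, 0.78 and 0.31. For miR-130b-3p they were miR-19a-3p (0.91), from the MYC-driven cluster that also holds miR-17, and miR-9-5p (0.90) and miR-9-3p (0.89), arms of a miRNA of neural progenitors. These values within slide 1 were 0.85 for miR-19a-3p, 0.68 for miR-9-5p and 0.73 for miR-9-3p.

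For miR-301a-3p they were miR-148a-3p (0.84), miR-380-3p (0.83) and miR-329-3p (0.83), which had 0.71, 0.18 and −0.72 within slide 1 and 0.89, 0.97 and 0.95 within slide 2. For miR-301b-3p they were miR-380-3p (0.71), miR-433-5p (0.65) and miR-148a-3p (0.62), with 0.19, 0.49 and 0.56 within slide 1. miR-380, miR-329 and miR-433 come from the imprinted Dlk1-Dio3 cluster. None of the 290 had a higher r with miR-301b-3p than miR-301a-3p had, while 12 exceeded the best member for miR-130a-3p, 10 for miR-130b-3p and 3 for miR-301a-3p. All these values share the arrays and their scaling.

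**Figure D4:**
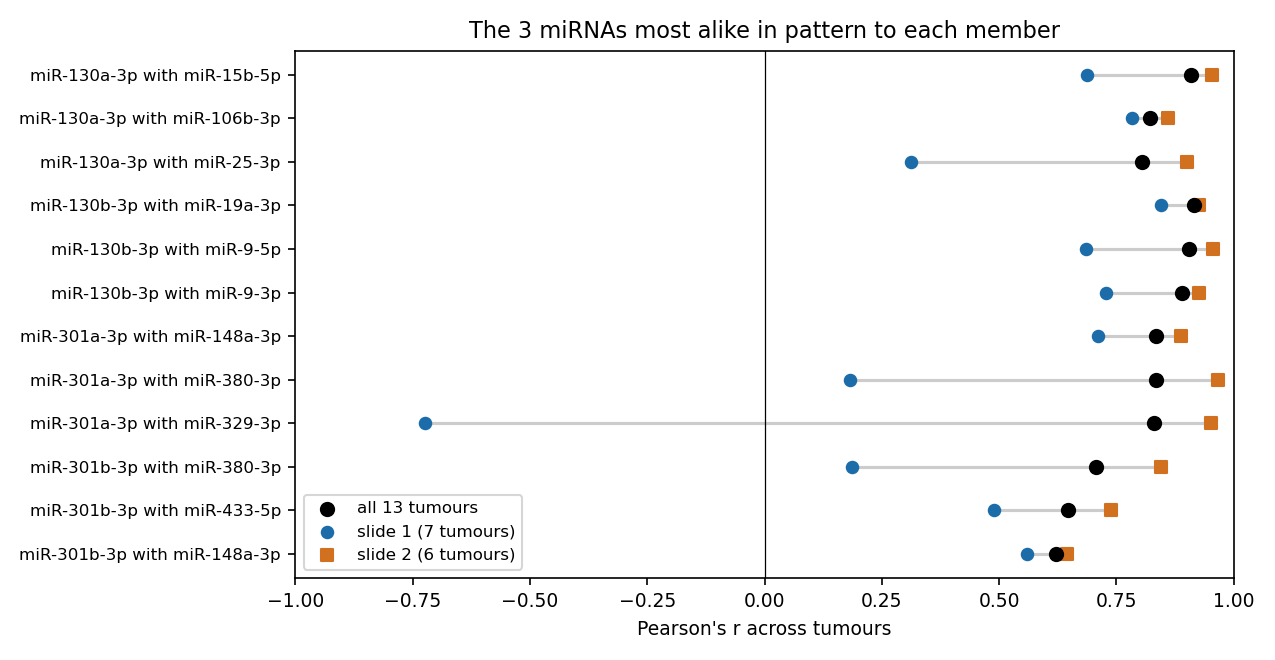
Pearson's r (horizontal axis) of each member with the 3 miRNAs most like it, in black over 13 tumours, in blue over the 7 tumours of slide 1 and in orange over the 6 of slide 2. The value for miR-301a-3p with miR-329-3p is negative on slide 1, and the values for miR-130b-3p lie at 0.68 or above on both slides.

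The opposite, 5p arms of the members were near background. Those of miR-130a, miR-301a and miR-301b were detected on 0 of 13 arrays, and miR-130b-5p on 3, all from deficient tumours. The 3p arm of every hairpin was detected on every array. miR-130b-5p was at 4.10 to 5.16 in wild-type and 4.10 to 5.19 in deficient tumours and was detected on too few arrays to be tested.

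The members were read by unlike sets of probes. miR-130a-3p, miR-130b-3p and miR-301a-3p each had 2 probes of up to 20 spots, and the probes of each followed each other across tumours (r = 0.98, 0.97 and 0.94, n = 13). miR-301b-3p had 4 probes of up to 10 spots. Its probes 1 and 2 were at the floor on all 13 arrays. Probes 3 and 4 were above it on every array, with r = 0.99 between them and genotype differences of 0.73 and 0.57. The median coefficient of variation among replicate spots of a member's probe was 3.08% to 7.66%, largest for miR-301b-3p. The miR-301b-3p level sums all 4 probes before the floor is applied. Signal of probes 1 and 2 under the floor therefore also entered the difference of 0.68.

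**Figure D5:**
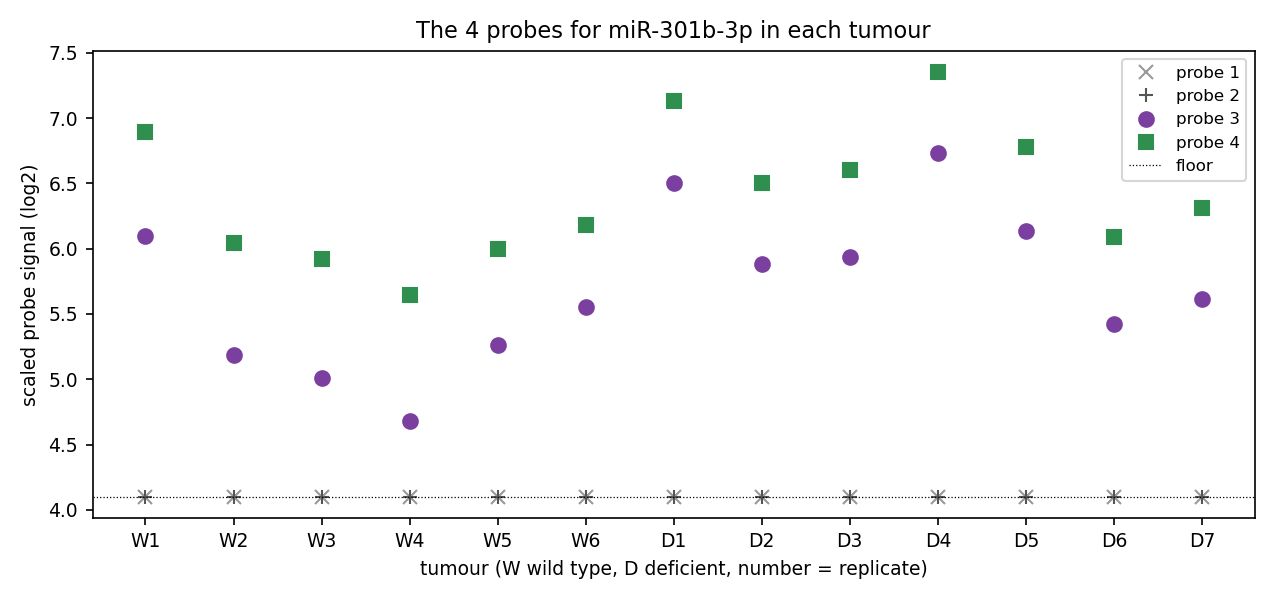
Scaled signal (log2, vertical axis) of the 4 probes for miR-301b-3p in each tumour, with W for wild type, D for deficient and the dotted line for the floor of 4.10. Probes 1 and 2 sit on the floor in all 13 tumours, while probes 3 and 4 are above it and move together.

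Markers of the tumour and of other cells were set beside the members. The 6 neuroblast and neuron miRNAs were all tested, their mean level was 8.81 to 9.77 in wild-type and 8.76 to 9.57 in deficient tumours, and 2 had higher and 4 lower means in deficient tumours. For both red cell miRNAs tested the mean was higher in deficient tumours, with a median difference of 0.83 and mean levels of 9.63 to 13.11 and 11.69 to 13.47. Both vessel miRNAs were also higher in mean, with a median difference of 0.35 and levels of 7.88 to 8.66 and 7.22 to 9.20. The part of these cells in the members' differences was not tested. Of 5 smooth muscle and fibroblast miRNAs 4 had higher means, at 6.41 to 8.28 and 6.64 to 8.11, and of 5 tested leukocyte miRNAs 2 did, at 6.36 to 9.47 and 6.65 to 8.79. The mean level of the 4 skeletal muscle miRNAs ranged from 4.48 to 10.63 and was highest in deficient replicates 4 and 3 and wild-type replicate 1. Of these 4 miRNAs, 2 had higher and 2 lower means in deficient tumours. Of 7 epithelial miRNAs, miR-200a-3p, miR-200c-3p, miR-141-3p and miR-429-3p were detected on no array and miR-200b-3p on 1. The other 2, miR-192-5p on 8 arrays and miR-194-5p on 6, were tested, and 1 had a higher and 1 a lower mean in deficient tumours. Their mean level was 4.24 to 5.55 in wild-type and 4.35 to 5.41 in deficient tumours. The liver miRNA was not tested.

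Of 36 relations between a member and a marker list, the number of detected miRNAs or the 75th percentile of the array, 0 passed by permutation with adjustment over the 36. The smallest p was for miR-130a-3p with the vessel list (r = 0.68, rho = 0.66, permutation p = 0.0113, adjusted p = 0.407), with 0.87 within slide 1, 0.77 within slide 2 and 0.61 without the 2 tumours farthest from the list's median. Both were lowest among deficient tumours in deficient replicate 2. miR-301b-3p had r = 0.42 with the skeletal muscle list (permutation p = 0.158, adjusted p = 0.703), and 0.02 without the 2 tumours farthest from the list's median. With the red cell list r was 0.39, 0.45, 0.09 and 0.45 for miR-130a-3p, miR-130b-3p, miR-301a-3p and miR-301b-3p (adjusted p of 0.703 to 0.947). Without the 3 tumours highest in skeletal muscle miRNAs, the genotype differences of the members were 0.23, 0.54, 0.42 and 0.71 in the same order.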

How the data were processed

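The members, the lists and the tests were chosen with earlier results of these data known. Members, their opposite arms, miRNAs with the same or a shifted seed, and the 3 miRNAs most like each member are named by rule, and lists by count. A further list is not reported here. Per the labels' protocols, Trizol RNA was labelled with Cy3. The deposited files held linear spot intensity from which, per the file headers, background had been subtracted and a spatial trend removed. The headers name Feature Extraction 10.7.3.1, whereas the submitters' processing notes name 10.5.1.1. Per the file headers, the other columns used were yes or no marks for detection and outliers. A deposited table of the whole series gave log2 values with equal distributions across arrays (median 3.82), whose background step and summary no source used here gives. It served as an alternative, and its 13 columns each matched their own array best.

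Of 47604 spots per array, 2164 controls and outlier-marked spots were left out. Spots were averaged per probe, probes summed per miRNA, and sums scaled to the 75th percentile of the 294 miRNAs detected on all 13 arrays, raised to a floor of 17.2 and converted to log2. Tests ran two-sided over the 419 miRNAs that 6 or more arrays detected, with lmFit and eBayes of limma 3.58.1 in R 4.3.3 and Benjamini-Hochberg adjustment at 0.05, and the fit was tested on simulated data. Correlations used two-sided permutation with 100000 resamples, or all orders within a slide (Python 3.11.15, numpy 2.4.6). The number of arrays limits the precision. Alternatives changed scaling, background, probe summary, filter, floor, slide, replicate block, array weights and the tumours included. Normexp used an offset of 50 on median spot and background signals. Leaving out the 3 tumours highest in skeletal muscle miRNAs was added after seeing the data. The slide was read from the files. The wild-type and deficient replicate numbers showed no pairing of the tumours: deviations of same-numbered tumours correlated from −0.22 to 0.19. Such values cannot exclude a pairing.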

Additional observations from a re-analysis of the deposited data

Results flagged for a closer look

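Among 32 sets of levels of 1 genotype, 5 held a tumour set apart from the rest by Dixon's ratio, where chance sets apart about 1 in 20. The sets share the same tumours and are not independent, so these 2 shares are no test of an excess. For miR-130a-3p, deficient replicate 2 was at 10.26, with the nearest deficient tumour at 10.65. The vessel list was at 7.22 in the same tumour, with the nearest at 8.36. Deficient replicate 1 was high for the red cell list, at 13.47 with the nearest at 12.28, and for the epithelial list, at 5.41 with the nearest at 4.60. Deficient replicate 3 was low for the neuroblast and neuron list, at 8.76 with the nearest at 9.29.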

How the results depend on the processing

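In all 29 alternatives 0 miRNAs passed between genotypes. For the members these alternatives reuse the same tumours and a contrast known when the members were chosen. Changes of the detection filter leave their estimates as they are. Counts over such fits are therefore a description. The members' differences were positive in 114 of 116 fits. In 110 they moved by less than 1 SD among tumours within a genotype. For miR-130a-3p, miR-130b-3p, miR-301a-3p and miR-301b-3p that SD was 0.30, 0.39, 0.33 and 0.50, near or above some of the differences. A difference can thus almost vanish and still be counted among the 110. So counted were miR-130a-3p within slide 1, at −0.01, and miR-130b-3p with array weights, at 0.09. The differences moved by more than 1 SD within slide 1 (−0.22 for miR-130b-3p, 0.0914 for miR-301b-3p), within slide 2 (0.97 for miR-130b-3p, 0.80 for miR-301a-3p, 1.49 for miR-301b-3p) and with normexp background (0.11 for miR-301b-3p). Leaving out 1 tumour gave 0.12 to 0.32 for miR-130a-3p, 0.28 to 0.53 for miR-130b-3p, 0.30 to 0.52 for miR-301a-3p and 0.55 to 0.85 for miR-301b-3p. With array weights they were 0.11, 0.09, 0.25 and 0.24. Without scaling they were 0.41, 0.61, 0.64 and 0.87, where the median over all tested miRNAs was 0.22. With the replicate block, whose numbers showed no pairing of the tumours, they were 0.20, 0.46, 0.48 and 0.75. In that fit 0 miRNAs passed, with 63 at an unadjusted p under 0.05 (16 without the block). The cause of these changes was not tested.

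Of the 6 pairs of members, 3 passed. All 6 passed with the 75th percentile over all mouse miRNAs and without scaling, and 0 passed with normexp background, within slide 1, within slide 2 and as deviations from genotype and slide means, while leaving out 1 tumour gave 3 to 4. Without scaling, the brightness of an array stays in every level. There 383 of 419 tested miRNAs were higher on slide 2, beside 213 with scaling. The r over all pairs of tested miRNAs was taken from scaled levels only. The sign of r turned within slide 1 for miR-130a-3p with miR-301a-3p (−0.14), miR-130a-3p with miR-301b-3p (−0.18) and miR-130b-3p with miR-301a-3p (−0.15), and as deviations for the last (−0.0156). Within slides, fewer tumours entered each test.

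Between slides 0 miRNAs passed in any alternative, and signs of the members' differences turned. For miR-130a-3p the value was −0.0813 with the 75th percentile over all mouse miRNAs, −0.0018 with quantile normalization, −0.0506 with total gene signal, −0.0808 with the series matrix and −0.0801 without covariate. It was 0.29 without scaling for miR-130b-3p, −0.0717 without covariate for miR-301a-3p, and −0.12 with normexp background and −0.0589 without covariate for miR-301b-3p. Leaving out 1 tumour gave −0.0697 to 0.0853 for miR-130a-3p and −0.32 to 0.0339 for miR-130b-3p. The 6 and 7 tumours per group, and 2 of a genotype on a slide, limit each value.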
